A study of Mus musculus with 24 samples.

Results

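The genes described here are 8 genes of the early oligodendrocyte lineage: Pdgfra, Cspg4, Sox10, Olig1, Olig2, Nkx2-2, Gpr17 and Bmp4. They are called precursor genes for short, although not all of them are limited to precursor cells. They were chosen by symbol as classical markers of this lineage, with earlier results of these data known. All 8 were found among the 49568 gene symbols counted in each library. Their levels were compared across whole hippocampi of WT mice and of mice with a kinase-dead MSK1 (MSK1 KD). MSK1 is a nuclear kinase that acts downstream of BDNF. Mice of each genotype were standard housed (SH) or enriched (EE). The comparison asks whether the housing, or the kinase activity of MSK1, alters the expression of the precursor genes. The MSK1 KD mice carry an inactivating point mutation in the N-terminal kinase domain of the endogenous MSK1 gene, and the mice of both genotypes were males on the C57-Bl/6J background. Enriched mice were reared from birth in large cages with a running wheel and toys that were moved and renewed. The labels give an age of 12 weeks for every mouse. Of 24 libraries, 22 are used, which are 6 of WT SH, 5 of WT EE, 6 of MSK1 KD SH and 5 of MSK1 KD EE. The study excluded 33B, a WT EE library, and 34B, a KD EE library, at quality control. The labels do not say whether each library came from 1 mouse, so the p values measure only the spread between these libraries.

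Oligodendrocyte precursor cells persist throughout the adult brain, divide slowly, and differentiate into the oligodendrocytes that wrap axons in myelin. They carry the PDGF receptor α and the NG2 proteoglycan on their surface and depend on PDGF for survival and division. The transcription factors Olig1, Olig2, Sox10 and Nkx2-2 specify the lineage and drive its differentiation, GPR17 marks the committed cells between precursor and oligodendrocyte, and BMP signaling holds differentiation back. Running and learning are known to alter the division and differentiation of these cells in the adult brain.

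The 22 libraries held between 8911999 and 56752074 counts on genes, so that 3 counts, used as the floor of detection, stood for between 0.0541 and 0.329 CPM (the count relative to library size, scaled by TMM). All 8 genes were above this floor in every library, and so were the 16 other precursor markers examined. Since the MSK1 mutation is a point mutation, the level of Rps6ka5, the gene of MSK1, does not check the genotype labels. It was between 19.3 and 29.0 CPM over the 22 libraries. All 8 genes of hippocampal neurons used to check the tissue were above the floor in every library. Genes of tissue next to the hippocampus were unequally present. The summed level of 15 choroid plexus genes, which include Ttr, was between 247 and 2836 CPM in WT SH, between 236 and 8160 in WT EE, between 229 and 4443 in KD SH, and between 469 and 8455 in KD EE. Library 12 (WT SH) had the highest score for thalamic genes, at 5.40 mean log2 CPM, and library 14 (WT SH) the highest for striatal genes, at 4.82. The 5 libraries whose number carries a letter (31B, 32A, 33A, 35A and 36A) were all enriched, and the labels do not say what the letter stands for. Without them, 2 libraries of WT EE and 3 of KD EE remain.

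The levels of the 8 genes spanned a wide range. Compared per length, as CPM per kilobase of exon, the mean over the 22 libraries was 62.3 ± 8.04 (SD) for Olig1, 19.1 ± 2.32 for Sox10, 13.9 ± 2.01 for Olig2, 9.32 ± 1.55 for Gpr17, 6.27 ± 0.45 for Pdgfra, 2.75 ± 0.213 for Cspg4, 1.04 ± 0.282 for Nkx2-2 and 0.743 ± 0.354 for Bmp4. Neighbors in this order were farther apart than the sum of their SDs, except Nkx2-2 and Bmp4, which did not differ beyond their spread. The low level of Nkx2-2 and Bmp4 limited their precision. Nkx2-2 had between 24 and 187 counts per library, and Bmp4 between 4 and 122. Olig1 and Olig2 are neighbors on chromosome 16, at chr16:91269772-91271933 and chr16:91225457-91228677 on the plus strand of GRCm38, with 41094 bases between them.

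**Figure D1:**
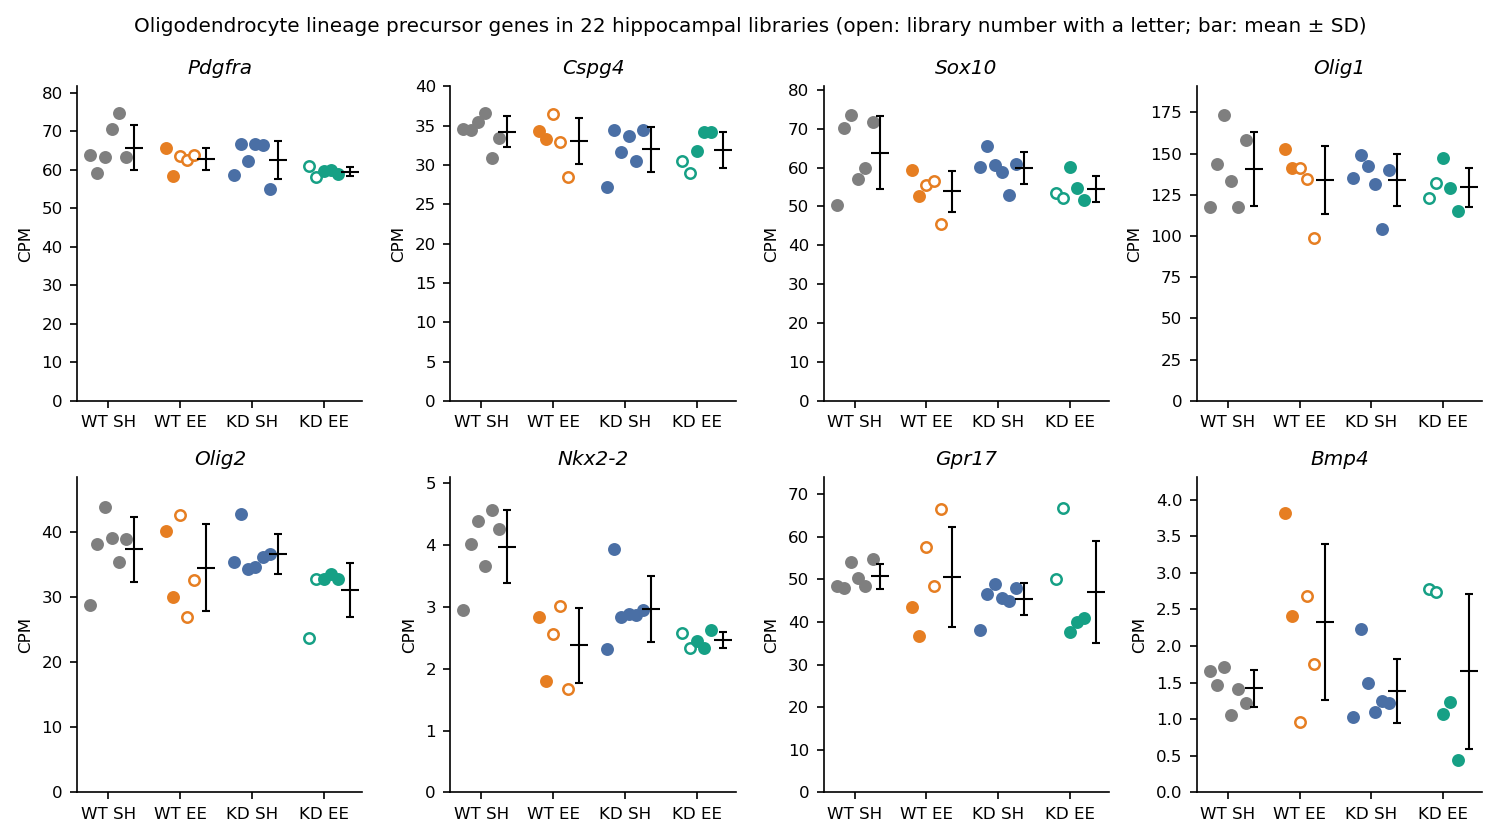
Expression of the 8 precursor genes in CPM (y axis, from 0) in each of the 22 libraries (points) of the 4 groups (x axis), with the mean ± SD of the group beside the points. Nkx2-2 lies lowest in the enriched groups, Gpr17 separates the lettered enriched libraries (open points) from the other enriched ones, and Bmp4 spreads between 0.438 and 3.81 CPM.

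With edgeR over the 22 libraries, 0 of the 8 genes passed the threshold in any of the 6 comparisons. A gene counted as called when its adjusted p did not exceed 0.05 and it differed at least 1.3-fold, which is 0.38 on the log2 scale. The comparisons were EE with SH in each genotype, EE with SH averaged over the genotypes, WT with MSK1 KD in each housing, and the interaction of genotype and housing. Few genes passed it at all. Of the 18482 genes tested, 0% were called in 5 of the comparisons, and 27 genes, or 0.146%, were called between EE and SH averaged over the genotypes. At an unadjusted p under 0.05, 3 of the 8 genes were found in WT (8.65% of all genes tested), 0 in MSK1 KD (9.63%) and 4 in the average (16.1%). These were Nkx2-2, Sox10 and Bmp4 in WT, joined in the average by Olig2. With DESeq2 on the same libraries, 1 of the 8, Nkx2-2, was called in WT and in the average, where DESeq2 called 0.0974% and 1.16% of all genes. It called none of the 8 in MSK1 KD (0.0216% of all genes) or between the genotypes in SH (0.0108%). The study removed 5 of the 22 for poor correlation within their group, so the 17 it kept were chosen by their expression values. In these 17 libraries 1 of the 8, Bmp4, was called by edgeR in WT and in the average, against 3.55% and 3.85% of all genes. None was called there in MSK1 KD (1.74%) or between the genotypes in EE (0.00535%). In bulk tissue, fewer cells of a type and less RNA per cell cannot be told apart.

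**Figure D2:**
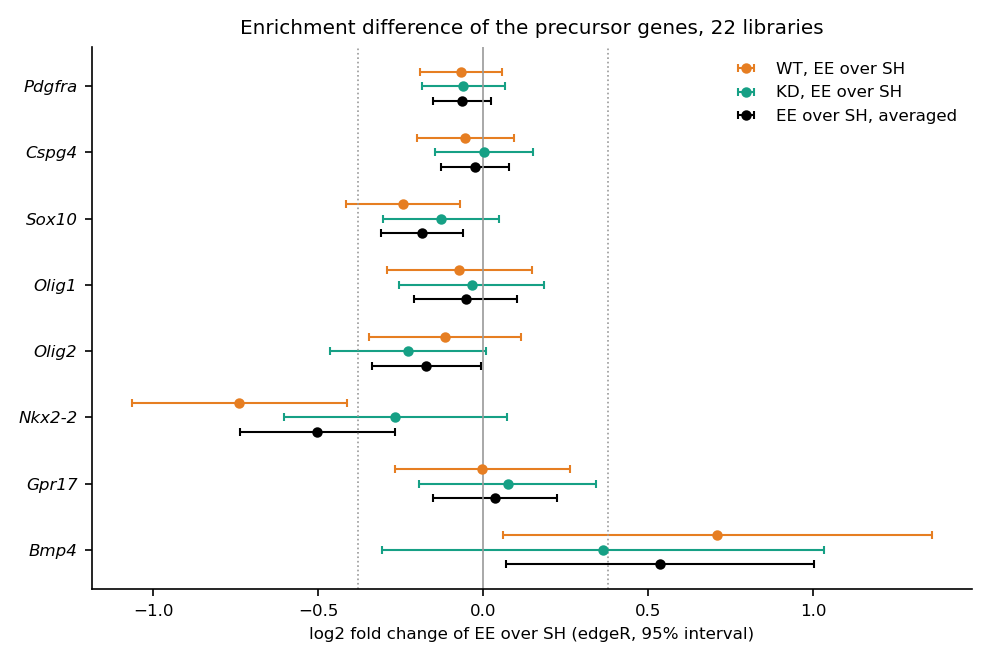
Log2 fold change of EE over SH (x axis) for each of the 8 genes (y axis) with its 95% interval from edgeR over the 22 libraries, in WT, in MSK1 KD and averaged, with dotted lines at the threshold of 0.38 in either direction. The interval of Nkx2-2 in WT lies below the lower line, and those of Pdgfra, Cspg4, Olig1 and Gpr17 lie between the lines.

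The genes of the cell surface that define the precursor state were nearly level. Pdgfra (chr5:75152292-75198215, plus strand), the receptor for PDGF-A that precursors need to divide, had a mean of 65.8 ± 5.73 CPM (SD, n = 6) in WT SH, 62.8 ± 2.75 (n = 5) in WT EE, 62.6 ± 4.95 (n = 6) in KD SH and 59.5 ± 1.06 (n = 5) in KD EE. Its 22 values lay between 54.9 and 74.7 CPM, and the groups overlapped. Between the housings Pdgfra differed by -0.07 in log2 units in WT (EE minus SH, 95% interval -0.19 to 0.06, adjusted p = 0.826) and -0.06 in MSK1 KD (-0.19 to 0.07, adjusted p = 0.768). Cspg4 (chr9:56865033-56899870, plus strand) encodes NG2, the chondroitin sulfate proteoglycan of these cells, which pericytes carry as well. Averaged over the genotypes, the median log2 difference of the 8 pericyte genes examined was 0.08, and 0 were called by edgeR or DESeq2. It was at 34.3 ± 1.94 CPM in WT SH, 33.1 ± 2.92 in WT EE, 32.002 ± 2.85 in KD SH and 31.9 ± 2.28 in KD EE. Its log2 fold change averaged over the genotypes was -0.03, with an interval of -0.13 to 0.08, beside -0.06 (-0.15 to 0.02) for Pdgfra. In each genotype the intervals of both genes stayed between -0.20 and 0.15.

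Of the transcription factors, Nkx2-2 showed the largest difference. Nkx2-2 (chr2:147177546-147194243, minus strand) is a homeodomain factor that is raised as precursors commit to differentiation. In WT SH its lowest, median and highest values were 2.95, 4.14 and 4.57 CPM. In WT EE its values were 2.84, 1.81, 2.55, 3.02 and 1.68 CPM in libraries 16, 17, 31B, 33A and 35A. Thus 4 of the 5 WT EE libraries were below every WT SH library, and library 33A lay just above the lowest of them, so that the groups overlapped by 1 library. In KD SH its lowest, median and highest values were 2.31, 2.87 and 3.94 CPM, and in KD EE it was at 2.45, 2.33, 2.63, 2.57 and 2.33 CPM in libraries 7, 8, 9, 32A and 36A. The KD EE libraries were within a narrow band inside the range of KD SH. All 10 enriched libraries were below the median of the standard housed libraries of their own genotype. The share of all genes tested with this pattern was not counted.

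The mean of Nkx2-2 was 3.97 ± 0.594 CPM (SD, n = 6) in WT SH and 2.38 ± 0.606 (n = 5) in WT EE, which is -0.74 ± 0.16 in log2 units (SE, edgeR adjusted p = 0.203), with rank 6 of the 18482 genes by p. In MSK1 KD it was 2.96 ± 0.53 CPM (n = 6) in SH and 2.46 ± 0.135 (n = 5) in EE, or -0.27 ± 0.16 in log2 units (edgeR adjusted p = 0.607). Averaged over the genotypes, the log2 fold change was -0.50 ± 0.11 (95% interval -0.74 to -0.27, edgeR adjusted p = 0.0503), just short of the threshold. The adjusted p crossed it under several other settings. It was 0.00697 with DESeq2 and 0.0358 with all 24 libraries, which include the 2 that failed quality control. With the choroid plexus score as a covariate it was 0.0397, where the fold change was -0.65. It was 0.0578 in the 17 libraries, where the fold change was -0.39, and 0.101 without the lettered libraries. An antisense gene, Nkx2-2os, covers 9.67% of the exonic bases of Nkx2-2 on the opposite strand, and the counting did not use strand. Nkx2-2os itself was between 0.233 and 0.921 CPM.

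The 240 bases from 250 to 11 before the annotated RefSeq start of Nkx2-2 and Bmp4 are shown, since these 2 genes carried the largest differences between the housings. The 3 matches to the E-box CANNTG in each, on either strand, are in capitals. This is the core recognized by basic helix-loop-helix factors such as Olig1 and Olig2. The windows are at chr2:147186413-147186652 and chr14:46390680-46390919 of GRCm38.p6, both on the minus strand, and are written 5′ to 3′. The window of Nkx2-2 lies within the span of the longer GENCODE gene model.
Nkx2-2: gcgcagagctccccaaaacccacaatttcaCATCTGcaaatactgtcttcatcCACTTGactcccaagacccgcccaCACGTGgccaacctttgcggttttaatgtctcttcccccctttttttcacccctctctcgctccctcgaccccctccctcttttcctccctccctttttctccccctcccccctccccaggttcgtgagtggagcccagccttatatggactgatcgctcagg
Bmp4: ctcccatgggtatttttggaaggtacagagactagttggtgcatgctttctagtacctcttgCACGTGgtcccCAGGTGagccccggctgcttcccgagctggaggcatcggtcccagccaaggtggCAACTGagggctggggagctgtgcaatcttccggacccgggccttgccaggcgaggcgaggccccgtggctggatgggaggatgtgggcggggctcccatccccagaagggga
In each window 1 of the 3 matches was CACGTG, which 5.69% of the 32851 windows of this length held, while 65% held at least 1 CANNTG. Neither window held the CREB motif TGACGTCA (1.44% of windows) or its core TGACG (16.9%) in these letters. CREB is the best known factor that MSK1 phosphorylates. A match to letters is not a binding site, and windows were found for 5 of the 8 genes. Those of Pdgfra, Cspg4 and Olig2 are not shown. On either strand, the window of Pdgfra held 1 CANNTG and 1 TGACG, and those of Cspg4 and Olig2 held neither.

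Sox10 (chr15:79154908-79165240, minus strand), an HMG factor required for myelin gene expression, followed in the same direction with a smaller difference. Its lowest, median and highest values in WT SH were 50.4, 65.1 and 73.6 CPM. In WT EE they were 59.4, 52.7, 55.5, 56.6 and 45.6 CPM in libraries 16, 17, 31B, 33A and 35A, all below the median of WT SH, with library 35A also below its lowest library. In KD SH they were 52.9, 60.4 and 65.5 CPM, and in KD EE 60.1, 54.6, 51.7, 53.4 and 52.2 CPM in libraries 7, 8, 9, 32A and 36A. As with Nkx2-2, all 10 enriched libraries were below the median of their genotype in SH, a pattern whose share among all genes was not counted. The groups overlapped. The log2 fold change of Sox10 was -0.24 ± 0.08 in WT (edgeR adjusted p = 0.414), -0.13 ± 0.09 in MSK1 KD (adjusted p = 0.634), and -0.19 ± 0.06 in the average (adjusted p = 0.119). Its adjusted p was between 0.0722 and 0.455 over the 32 other settings of the average.

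Olig2, the basic helix-loop-helix factor that founds the lineage, differed without overlap in 1 genotype only. In KD SH its lowest, median and highest values were 34.4, 35.8 and 42.8 CPM, and in KD EE it was at 32.8, 33.6, 32.9, 23.7 and 32.8 CPM in libraries 7, 8, 9, 32A and 36A. Every KD EE library was thus below every KD SH library, as it was for 0.39% of all genes tested, but the gap was small, from 33.6 to 34.4 CPM. The log2 fold change was -0.23 ± 0.11 (edgeR adjusted p = 0.534), and -0.13 without the lettered libraries, among which 32A had the lowest value. In WT the groups overlapped widely, with 28.8, 38.6 and 43.9 CPM as the lowest, median and highest values of SH and 40.2, 30.1, 42.7, 27.0 and 32.7 CPM in EE (libraries 16, 17, 31B, 33A and 35A), a log2 fold change of -0.12 ± 0.11 (adjusted p = 0.841). In the average it was -0.17 ± 0.08 (edgeR adjusted p = 0.287).

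Olig1, its neighbor and the most abundant of the 8, had overlapping groups in both genotypes. Its means were 141 ± 22.3 CPM in WT SH, 134 ± 20.6 in WT EE, 134 ± 15.8 in KD SH and 130 ± 11.9 in KD EE. Its values ranged from 99.0 CPM in library 35A to 173 in library 12, and the log2 fold change was -0.07 in WT (95% interval -0.29 to 0.15) and -0.03 in MSK1 KD (-0.26 to 0.19).

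Gpr17 (chr18:31942997-31949636, minus strand), a receptor of the committed precursor that is lost in the mature oligodendrocyte, had similar means in the 4 groups but split the enriched libraries. Its means were 50.7 ± 3.00 CPM in WT SH, 50.5 ± 11.8 in WT EE, 45.4 ± 3.79 in KD SH and 47.1 ± 12.0 in KD EE. The log2 fold change was -0.00 in WT (95% interval -0.27 to 0.26) and 0.07 in MSK1 KD (-0.19 to 0.34). The spread was wider in EE than in SH in both genotypes. The lettered libraries 31B, 32A, 33A, 35A and 36A were at 57.6, 50.01, 48.4, 66.6 and 66.9 CPM. The other enriched libraries 7, 8, 9, 16 and 17 were at 37.7, 40.1, 41.0, 43.5 and 36.6 CPM, all below every lettered library, and in both genotypes. The share of all genes that split the enriched libraries in this way was not counted, so the split is not shown to be particular to Gpr17. In the standard housed libraries Gpr17 was between 38.2 and 54.7 CPM.

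Without the lettered libraries, the log2 fold change of Gpr17 was -0.34 in WT (edgeR adjusted p = 0.067) and -0.26 in the average (adjusted p = 0.0601), in place of 0.04. These values rest on 2 WT EE and 3 KD EE libraries. Every lettered library is enriched, so in a comparison with SH what sets them apart and the housing cannot be told apart. The split of Gpr17 itself lies among libraries that share the enriched housing. Gpr17 lies inside Lims2, a gene of the opposite strand that shares 3.62% of its exonic bases. Lims2 was between 7.29 and 12.9 CPM in the lettered enriched libraries and between 7.99 and 10.1 CPM in the other enriched ones. The share of fragments in no gene was between 10.9% and 14.2% in the former and between 10.1% and 11.8% in the latter. The part of these in the difference was not tested.

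Bmp4 (chr14:46383520-46390669, minus strand), a ligand of the TGF-β superfamily that keeps precursors from differentiating and that committed cells also make, was the only member above SH in both genotypes by more than 0.1 on the log2 scale. Its lowest, median and highest values in WT SH were 1.06, 1.44 and 1.72 CPM. In WT EE it was at 3.81, 2.41, 0.962, 2.69 and 1.75 CPM in libraries 16, 17, 31B, 33A and 35A, so that 4 of the 5 were above every WT SH library and 1, library 31B, was below all of them. In KD SH its lowest, median and highest values were 1.04, 1.23 and 2.23 CPM. In KD EE it was at 1.07, 1.23, 0.438, 2.78 and 2.73 CPM in libraries 7, 8, 9, 32A and 36A, with 2 above every KD SH library and 1 below. The value of library 9 rests on 4 counts.

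The log2 fold change of Bmp4 was 0.71 ± 0.32 in WT (SE, edgeR adjusted p = 0.518), 0.36 ± 0.33 in MSK1 KD (adjusted p = 0.73) and 0.54 ± 0.23 in the average (adjusted p = 0.236). Among the 17 libraries of the study, which leave out libraries 2, 9, 12, 31B and 35A, it was 1.13 in WT (adjusted p = 0.00977) and 0.93 in the average (adjusted p = 0.00141), both past the threshold. The choice of libraries thus decided the call. Without the lettered libraries, only 2 WT EE libraries (16 and 17) and 3 KD EE libraries remained. There the log2 fold change was 1.15 in WT (edgeR adjusted p = 0.0376) and turned to -0.48 in MSK1 KD (adjusted p = 0.849).

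The level of Bmp4 moved with genes of neighboring tissue. The 6 libraries highest in Bmp4, which were 16, 32A, 36A, 33A, 17 and 2, at 2.23 to 3.81 CPM, were also the 6 highest in the summed level of the 15 choroid plexus genes, at 4443 to 8455 CPM, and the 6 highest in that of 8 genes of meningeal fibroblasts, at 246 to 375 CPM. The other 16 libraries had between 0.438 and 1.75 CPM of Bmp4, between 229 and 3483 CPM of the choroid plexus genes, and between 86.9 and 229 CPM of the fibroblast genes. Library 2 is standard housed, and the 5 enriched libraries with the least Bmp4 (9, 31B, 7, 8 and 35A) had 469, 270, 1683, 3483 and 236 CPM of the choroid plexus genes. With the choroid plexus score as a covariate, the log2 fold change of Bmp4 was 0.21 in WT, -0.26 in MSK1 KD and -0.02 in the average (edgeR adjusted p = 0.972). The choroid plexus genes were themselves higher in EE, so in this fit neighboring tissue and the housing cannot be told apart. The part of neighboring tissue in the level of Bmp4 was not tested. The 15 choroid plexus genes had a median log2 fold change of 2.34 between EE and SH in the 22 libraries, with 15 of 15 at an unadjusted p under 0.05, 0 called by edgeR and 3 (F5, Kl and Prlr) called by DESeq2. In the 17 libraries their median was 4.21, with 15 of 15 called by edgeR. The 8 fibroblast genes had medians of 0.45 and 0.82, with 0 and 7 called by edgeR. DESeq2 called 1 of them, Igf2, in the 22 libraries, where it called 1.16% of all genes.

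**Figure D3:**
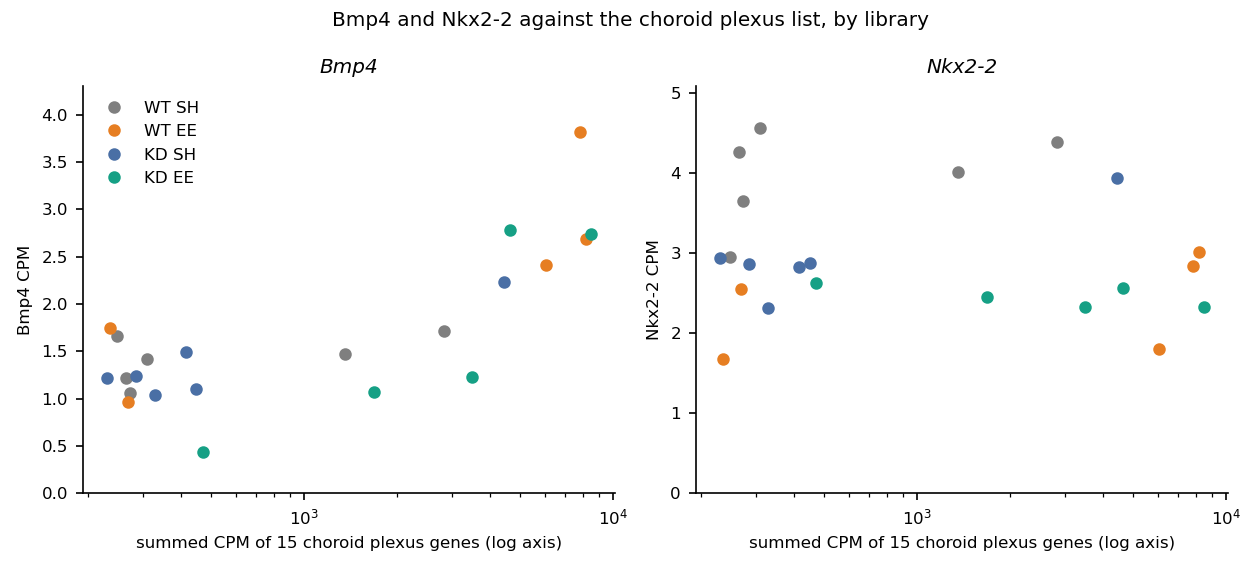
Bmp4 (left) and Nkx2-2 (right) in CPM (y axes, from 0) against the summed CPM of 15 choroid plexus genes (x axis, logarithmic) in each of the 22 libraries, colored by group. The 6 libraries at the right, from 4443 to 8455 CPM of choroid plexus genes, are the 6 highest in Bmp4, while the enriched libraries are between 1.68 and 3.02 CPM of Nkx2-2.

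For Nkx2-2, the WT EE libraries with the least and the most choroid plexus genes, 35A and 33A, had the lowest and the highest value, 1.68 and 3.02 CPM. Library 31B, with 270 CPM of choroid plexus genes, had 2.55. In KD SH, library 2 was the highest both in choroid plexus genes and in Nkx2-2, at 3.94 CPM. Over the 22 libraries, Pearson's r of Nkx2-2 with the choroid plexus score was -0.11, and it was 0.42 after the group means were removed. With the choroid plexus score as a covariate, the difference of Nkx2-2 between the housings was -0.65 in the average, in place of -0.50. The choroid plexus genes were themselves higher in EE, and their part in the difference of Nkx2-2 was not tested.

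Between the genotypes, all 8 genes had a higher mean in WT SH than in KD SH, by 0.02 to 0.42 on the log2 scale with a median of 0.08. This did not hold for all 8 without libraries 12 and 14, the WT SH libraries highest in thalamic and in striatal genes, where Bmp4 was at -0.056, Olig2 at -0.011 and Nkx2-2 at 0.33. Between these groups 8 of 8 thalamic genes were higher in WT SH, with a median of 0.30, and 8 of 9 striatal genes, with a median of 0.36, and their part in the differences was not tested. With edgeR, 1 of the 8 had an unadjusted p under 0.05, beside 5.76% of all genes. This was Nkx2-2, at 3.97 CPM in WT SH and 2.96 in KD SH, a difference of 0.42 ± 0.15 in log2 units (edgeR adjusted p = 0.811), with 4 of the 6 WT libraries above every KD library. Among the enriched mice, the log2 fold change of WT EE over KD EE was -0.05 for Nkx2-2 (95% interval -0.41 to 0.30), 0.36 for Bmp4 and 0.14 for Olig2, and between -0.05 and 0.36 for the 8 genes, with 0 at an unadjusted p under 0.05 (2.61% of all genes) and 0 called by DESeq2. WT SH thus had the highest mean of Nkx2-2 of the 4 groups.

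The interaction tests whether the difference between the housings depends on the genotype. For Nkx2-2 it was -0.47 ± 0.23 on the log2 scale, with the larger difference in WT (edgeR adjusted p = 0.99996). It was the 1 member with an unadjusted p under 0.05, beside 2.04% of all genes, and 0 of 8 passed the threshold with edgeR or DESeq2. Its intervals were wide. They ran from -0.94 to -0.00 for Nkx2-2 and from -0.59 to 1.28 for Bmp4.

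The genes around the members were examined by lists of the lineage and of its pathways, comparing EE with SH averaged over the genotypes. The median log2 fold change of all genes tested was 0.00. Of 16 other precursor markers, 14 were lower in EE, with a median of -0.05, and 1 was called. This was Lhfpl3, a four-span membrane protein gene enriched in precursors, at 16.5 ± 2.58 CPM in WT SH, 12.2 ± 0.87 in WT EE, 17.4 ± 3.71 in KD SH and 12.1 ± 1.14 in KD EE. Lhfpl3 fell by 0.47 ± 0.09 on the log2 scale (edgeR adjusted p = 0.0406), and 5 genes or 0.0271% of those tested were called as lower. It was also called in the 17 libraries and with DESeq2, which draw on the same counts and are not independent of this result. Within a genotype it was not called, at -0.43 in WT (adjusted p = 0.386) and -0.51 in MSK1 KD (adjusted p = 0.453). It was not called without the lettered libraries (adjusted p = 0.0622) or with the choroid plexus score as a covariate (adjusted p = 0.0629), and leaving out 1 library at a time lost the call in 10 of 22 cases. Its ranges in SH (12.5 to 19.2 CPM in WT and 13.2 to 23.1 in MSK1 KD) and EE (10.9 to 13.3 and 10.7 to 13.3) overlapped at their edges. Rlbp1, next by p in this list, had a log2 fold change of -0.15 ± 0.05 (adjusted p = 0.118).

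Of 12 genes of committed, newly differentiating cells, 9 were lower in EE, with a median of -0.08 and 0 called by edgeR or DESeq2. Enpp6, a choline phosphodiesterase of newly formed oligodendrocytes, was at 10.7 ± 1.73 CPM in WT SH and 7.93 ± 1.74 in WT EE, and at 9.79 ± 1.61 and 7.73 ± 1.26 in MSK1 KD, a log2 fold change of -0.38 ± 0.10 (edgeR adjusted p = 0.0741). Sirt2, a deacetylase of the oligodendrocyte cytoplasm, differed by -0.13 ± 0.04 (adjusted p = 0.0843). Cnksr3 was called as higher in the 17 libraries alone, at 0.39, where 3.74% of all genes were called as higher.

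Of 19 genes of the mature oligodendrocyte, 19 were lower in EE, with a median of -0.14, 9 at an unadjusted p under 0.05 (7.28% of all genes were lower at that p) and 0 called by edgeR or DESeq2. Aspa, which breaks down N-acetylaspartate, had a log2 fold change of -0.37 ± 0.09 (adjusted p = 0.0568). The list's range of summed CPM was 5760 to 7604 in WT SH, 5309 to 5916 in WT EE, 5568 to 7103 in KD SH and 5097 to 6228 in KD EE, so that the groups overlapped. In the 17 libraries the median was -0.05, with 14 of 19 lower. There 13 of 19 were higher in WT, with a median of 0.025 and 0 called, while in MSK1 KD 18 of 19 were lower, with a median of -0.13. In MSK1 KD 1 was called, Opalin, at -0.52, beside 1.74% of all genes. In the interaction of genotype and housing in these 17 libraries, 4 of the 19 had an unadjusted p under 0.05 (5.51% of all genes) and 0 were called by edgeR. Over the 22 libraries 8 of 8 thalamic genes were also lower in EE, with a median of -0.27, and in the 17 libraries 4 of 8, with a median of -0.02. The part of thalamic tissue, which is rich in myelin, was not tested.

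**Figure D4:**
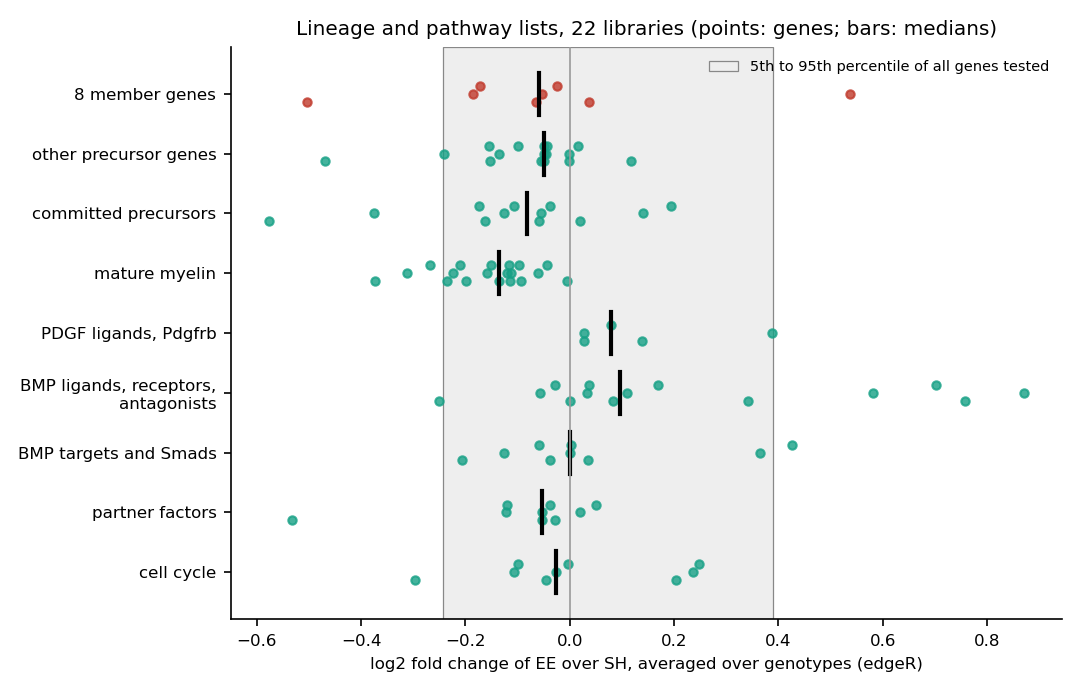
Log2 fold change of EE over SH, averaged over the genotypes (x axis, edgeR, 22 libraries), of each gene (points) in the lists of the lineage and its pathways (y axis), with the median of each list as a bar and the 5th to 95th percentile of all genes tested shaded. All 19 mature myelin genes lie below 0, and the BMP list reaches from -0.25 to 0.87.

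The ligands of Pdgfra were close between the housings. Pdgfa, its main ligand in the brain, was at 29.5 ± 1.87, 29.0 ± 2.04, 28.9 ± 3.25 and 30.4 ± 0.47 CPM in WT SH, WT EE, KD SH and KD EE. Of the 5 genes in the list of PDGF ligands and Pdgfrb, 5 were higher in EE, with a median of 0.08 and 0 called by edgeR or DESeq2. Pdgfd, a ligand of the β receptor, was at 0.39 ± 0.16 on the log2 scale (edgeR adjusted p = 0.238) in the 22 libraries and was called in the 17, at 0.71, where 3.74% of all genes were called as higher. Pdgfb differed by 0.14 ± 0.07 (adjusted p = 0.32). Over the 32 other settings of the average, Pdgfd was between 0.02 and 0.71 and Pdgfb between 0.03 and 0.17.

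Among 14 BMP ligands, receptors and antagonists, 10 were higher in EE, with a median of 0.10. At an unadjusted p under 0.05 there were 7, beside 16.1% of all genes. None was called by edgeR, and 2, Bmp7 and Fst, were called as higher by DESeq2, which called 1.16% of all genes in either direction. Fst, which encodes the antagonist follistatin, had a log2 fold change of 0.76 ± 0.17 (edgeR adjusted p = 0.0503) from 0.688 ± 0.165 CPM in WT SH to 1.30 ± 0.427 in WT EE, and from 0.902 ± 0.165 to 1.33 ± 0.481 in MSK1 KD. Bmp7 differed by 0.70 ± 0.17 (adjusted p = 0.0582) and Bmp6 by 0.87 ± 0.25 (adjusted p = 0.0899). In the 17 libraries 3 of the 14, Bmp6, Bmp7 and Fst, were called, all higher, beside 3.74% of all genes called as higher. Within WT EE, Bmp6 ranged from 3.52 to 20.7 CPM and Bmp7 from 4.94 to 20.02. The genes of choroid plexus (15 of 15 higher, median 2.34, and 4.21 in the 17 libraries) and of meningeal fibroblasts (8 of 8 higher) moved with this list, and their part in it was not tested. The log2 fold change of Bmp7 depended on the setting, from 0.25 to 1.04 over the 32 other settings of the average. That of Fst was between 0.58 and 0.84 over 31 settings. Of 9 BMP targets and Smads, 0 were called by edgeR or DESeq2 and the median was -0.00. Id2, a repressor of basic helix-loop-helix factors, was lower, by -0.21 ± 0.05 (adjusted p = 0.0629), and Smad6, an inhibitory Smad, was higher, by 0.43 ± 0.18 (adjusted p = 0.228). Smad6 and Id1 were called in the 17 libraries, at 0.73 and 0.62, beside the same 3.74% of all genes called as higher. Over the 32 other settings of the average, Smad6 was between 0.07 and 0.73 and Id2 between -0.25 and -0.11.

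Of 10 partner factors of the Sox and Olig proteins, 9 were tested, since Olig3 was at 0 counts in 20 of the 22 libraries. None was called by edgeR, and 1, Hes5, was called as lower by DESeq2, which called 1.16% of all genes in either direction. Hes5, a Notch target that restrains differentiation, was at 3.87 ± 1.06 CPM in WT SH, 2.52 ± 0.474 in WT EE, 4.05 ± 0.624 in KD SH and 2.93 ± 0.192 in KD EE, a log2 fold change of -0.53 ± 0.12 (edgeR adjusted p = 0.0514), close to that of Nkx2-2. Zeb2 differed by -0.12 ± 0.07 (adjusted p = 0.371). Of 9 cell cycle genes 0 were called by either tool, with a median of -0.03. Mcm2 and Mcm5, subunits of the replicative helicase, differed by 0.25 ± 0.10 (adjusted p = 0.202) and 0.20 ± 0.10 (adjusted p = 0.294), and Mki67 by -0.03 ± 0.10 (adjusted p = 0.935). At an unadjusted p under 0.05, edgeR found 16.1% of all genes in this comparison. Among the lists it found 4 of the 16 other precursor markers, 2 of the 12 committed genes and 1 of the 5 in the PDGF list. It also found 3 of the 9 BMP targets, 1 of the 9 partner factors tested, 3 of the 9 cell cycle genes and 0 of the 8 pericyte genes.

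The members did not vary as a block. Over the 22 libraries, Pearson's r of log2 CPM was 0.80 between Sox10 and Olig1, 0.77 between Sox10 and Nkx2-2, 0.58 between Sox10 and Olig2, and 0.48 between Pdgfra and Nkx2-2. Gpr17 was between -0.12 and 0.22 with every other member, and Pdgfra and Cspg4 were at 0.15 with each other. These values are descriptions, and libraries share depth, dissection and group. After the group means were removed, that of Sox10 with Olig1 was 0.88 and that of Sox10 with Nkx2-2 was 0.64. Without that removal, r with the score of the other precursor markers was 0.57 for Pdgfra, 0.24 for Cspg4, 0.46 for Sox10 and 0.17 for Olig1. It was 0.37 for Olig2, 0.67 for Nkx2-2, 0.26 for Gpr17 and -0.14 for Bmp4. With the mature myelin score it was, in the same order, 0.15, 0.14, 0.70, 0.50, 0.55, 0.56, -0.25 and -0.08. Bmp4 was at 0.86 with the meningeal fibroblast score.

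The genes whose level was most like that of each member over the 22 libraries, among 15013 genes with a mean of at least 1 CPM, differed between members. Those of Sox10 were Gpr37, Gpr62 and Fa2h (r between 0.82 and 0.84), and those of Nkx2-2 were Gpr37, Hepacam and Fa2h (0.76 to 0.80), of which Gpr37, Gpr62 and Fa2h are known from myelinating oligodendrocytes. Those of Olig2 were Ndrg1, A230009B12Rik and Myrf (0.71 to 0.75), where Myrf is the factor that switches on the myelin genes. Those of Olig1 were Tmbim6, Enho and Frmd8 (0.86 to 0.89), those of Pdgfra were Negr1, Zc3h14 and Gm14410 (0.75 to 0.82), and those of Cspg4 were Grik4, Bahcc1 and Baiap3 (0.73 to 0.74). Gpr17 was most like Foxk2, Arid2 and Heatr5a (0.86 to 0.88), which are broadly expressed. Bmp4 was most like Thbs1, Col3a1 and Ptgis (0.90 to 0.91), of which Col3a1, a fibrillar collagen, is also one of the meningeal fibroblast genes.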

How the data were processed

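Counts on gene symbols were deposited by the authors for each library without normalization. Reads had been trimmed (Skewer), mapped to GRCm38 (STAR 2.5) and, where uniquely mapped, assigned to genes by HTSeq without regard to strand. Counts were tested in R 4.3.3 with edgeR 4.0.16, with filterByExpr by group, TMM scaling and 1 quasi-likelihood model of the 4 group means over the 22 libraries. The p values were two-sided and adjusted by the Benjamini–Hochberg method over 18482 genes. DESeq2 1.42.0 was an alternative. CPM are TMM-scaled, and scores are mean log2 CPM with a prior count of 2.

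The members and all lists were chosen with earlier results of these data known. Beside the members, the genes named are the 3 most like each member, those called in a list and the 2 of lowest p in it (1 of which is not reported here), and the genes that define the other tissues. Pdgfa, Mki67, Bmp6 and the genes called in the 17 libraries or by DESeq2 alone were named after their values were seen. Gene positions are of GENCODE M21, in which 47240 symbols were found, and sequences are of RefSeq (GRCm38.p6). No pair of libraries held identical counts. The script was tested on simulated counts. Floors cover counting error only. The authors' table of normalized signal for the 17 libraries was not used here. Alternatives were other library sets, normalizations, filters, covariates and call rules, and each library left out in turn.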

Additional observations from a re-analysis of the deposited data

Results flagged for a closer look

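In a search for single libraries far from the rest of their group, over 32 groups of values (8 genes in 4 groups), of which chance gives about 1 in 20, 3 values stood apart. Olig2 was at 42.8 CPM in library 2 of KD SH, above the other 5 at 34.4 to 36.7 CPM, and at 23.7 CPM in library 32A of KD EE, below the other 4 at 32.8 to 33.6 CPM. Gpr17 was at 38.2 CPM in library 1 of KD SH, below the other 5 at 45.0 to 48.9 CPM. Library 2 is 1 of the 5 that the study removed for poor correlation within the group, and it was the highest of KD SH in choroid plexus genes, at 4443 CPM. Without library 2 the log2 fold change of Nkx2-2 averaged over the genotypes was -0.45 (edgeR adjusted p = 0.0326).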

How the results depend on the processing

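No paired analysis was possible because the labels give the groups no shared replicate numbers. Over the settings other than leaving out 1 library, 462 values of the 8 genes kept their direction and their side of the threshold, 12 newly passed it and 32 turned sign. For leaving out 1 library these numbers were 1004, 8 and 44. The causes were not tested. Depth limits Bmp4 most, and with at least 10 counts in every library it could not be tested.

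The count of genes called, 0 in WT between the housings, was 664 in the 17 libraries, 1 in all 24 and 18 with DESeq2. Without the lettered libraries, with 2 WT EE libraries left, it was 314. It was 7 with no filter and 114 with the thalamus score as a covariate. In MSK1 KD it was 325 in the 17 libraries and 4 with DESeq2. Between the genotypes in SH it was 2 with DESeq2 and 3 with the thalamus score, and in EE 1 in the 17 libraries. The 27 averaged over the genotypes became 720 in the 17 libraries, 90 in all 24, 80 without the lettered libraries, 214 with DESeq2, 44 with DESeq2 size factors in edgeR, 209 with no filter, 45 with at least 10 counts, 9 with the choroid plexus score, 348 with the thalamus score, 4 without libraries 12 and 14, and 49 by adjusted p alone. Leaving out 1 library gave 2 to 287 in the average (287 without library 31B), and 0 to 1 in MSK1 KD and between the genotypes in EE (1 without library 9). The covariate of thalamus genes and the loss of libraries 12 and 14 were chosen after seeing the data.

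Nkx2-2 passed the threshold in WT with DESeq2 at -0.74 and with the thalamus score at -0.70. In the average it passed at -0.49 in all 24 libraries, -0.50 with DESeq2, with its size factors and with at least 10 counts, -0.51 with no filter, -0.65 with the choroid plexus score and -0.48 with the thalamus score. Leaving out 1 library gave -0.56 to -0.45, called in 8 of 22 cases, with an adjusted p of 0.0263 to 0.131. Bmp4 passed in WT at 1.13 in the 17 libraries and 1.15 without the lettered libraries, and in the average at 0.93 in the 17 libraries.

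Signs turned mostly for values near 0. In the 17 libraries these were Olig1 (0.091 in WT, 0.032 in MSK1 KD, 0.062 averaged, 0.059 for the interaction), Cspg4 in MSK1 KD (-0.0016), Gpr17 averaged (-0.050), and between the genotypes in EE Gpr17 (-0.19), Nkx2-2 (0.091) and Sox10 (0.028). Without the lettered libraries they were Olig1 (0.069 in WT, 0.028 averaged, 0.083 for the interaction), Cspg4 averaged (0.030), Gpr17 (-0.18 in MSK1 KD, -0.26 averaged), Bmp4 in MSK1 KD (-0.48) and Sox10 between the genotypes in EE (0.0030). With the choroid plexus score they were Bmp4 (-0.26 in MSK1 KD, -0.023 averaged), Cspg4 in MSK1 KD (-0.015) and Gpr17 in WT (0.029). With the thalamus score they were Bmp4 between the genotypes in SH (-0.17), Cspg4 in MSK1 KD (-0.0060) and Gpr17 in WT (0.026). Without libraries 12 and 14 they were Bmp4 (-0.056) and Olig2 (-0.011) between the genotypes in SH, Gpr17 in WT (0.0044) and Pdgfra for the interaction (0.025). With no filter they were Cspg4 in MSK1 KD (-0.0084) and Pdgfra for the interaction (0.0046). Gpr17 in WT was 0.0019 with at least 10 counts and 4.42e-05 with only the groups compared.

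Leaving out 1 library at a time also turned signs, with these lowest and highest values. In WT they were -0.12 to 0.014 for Olig1 and -0.13 to 0.091 for Gpr17. In MSK1 KD they were -0.039 to 0.043 for Cspg4, -0.095 to 0.00072 for Olig1 and -0.084 to 0.14 for Gpr17. Between the genotypes in SH they were -0.019 to 0.093 for Olig2 and -0.052 to 0.21 for Bmp4, and in EE -0.054 to 0.032 for Sox10, -0.012 to 0.13 for Olig1, -0.16 to 0.058 for Nkx2-2 and -0.038 to 0.25 for Gpr17. For the interaction they were -0.035 to 0.031 for Pdgfra, -0.088 to 0.051 for Olig1 and -0.20 to 0.084 for Gpr17, and for Gpr17 averaged -0.042 to 0.082.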

Other observations

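The 2 libraries that failed quality control enter only the results given above for all 24 libraries. In library 33B (WT EE) the genes were at 61.4 CPM for Pdgfra, 34.2 for Cspg4, 49.5 for Sox10, 112 for Olig1, 27.9 for Olig2, 2.76 for Nkx2-2, 43.0 for Gpr17 and 1.60 for Bmp4. In library 34B (KD EE) Olig1 had 3 counts and the other 7 genes had 0, where a floor of 3 counts stands for 125 CPM, so that its values set no limit below that level for 7 of the 8 genes.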
